A study of Mus musculus with 12 samples.

Results

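Proliferating T cells were studied among CD4 T cells recovered from mice that had received Th1 cells, the helper T cells that make interferon gamma. A cell counted as a T cell when it held 3 or more unique molecular identifiers (UMIs, counted RNA molecules) of Cd3d, Cd3e and Cd3g together, the genes of the CD3 chains of the T cell receptor complex. It counted as cycling when at least 3 of 6 cell cycle genes (Mki67, Top2a, Birc5, Ccna2, Rrm2 and Nusap1) had a UMI, and as resting when none of the 6 had one, so that cycling cells were chosen by these UMI counts. Of 32763 cells, 29623 passed the CD3 limit, and 1836 of those were cycling, which is 6.20% of CD3-positive cells and 5.6% of all cells. Resting cells numbered 23363, and the remaining 4424 CD3-positive cells held 1 or 2 of the genes.

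The transferred Th1 cells were Il23rwt/eGFP (control) or Il23reGFP/eGFP (knockout, KO), so that both carried an eGFP reporter allele at Il23r, the receptor gene for interleukin-23. Libraries came from 4 sites: spleen and colon lamina propria gave 2 libraries for each genotype, the colon epithelium and the lamina propria of the small intestine 1 each, which makes 12 in all. The age and genotype of the recipients, and whether numbered replicates are separate animals, are not given in the sources used here, so p-values measure the spread between these samples, which may be technical. Replicate 1 and replicate 2 coincide with batch 1 and batch 2 of the authors' cell table, and small intestine and colon epithelium exist only in batch 2. The libraries held 3107528 to 14292028 UMIs and 981 to 4079 cells, and the sums over cycling cells ran from 43466 UMIs (6 cells, small intestine KO) to 3863662 UMIs (566 cells, spleen KO 2).

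A dividing T cell passes through G1, copies its DNA in S phase, prepares in G2 and divides in mitosis. E2F transcription factors switch on the genes of replication late in G1. Complexes with B-MYB and FOXM1 switch on the mitotic genes later, through promoter elements called CHR and the CCAAT box. In a resting T cell the same genes are held down, while factors such as KLF2, FOXO1, BTG1 and TCF7 are linked to quiescence, survival and recirculation. CD4 T cells that meet their antigen in lymphoid organs or in the gut wall enter this cycle.

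The promoters of 3 genes of this program are shown because they carry the elements named above and because these genes were higher in cycling cells in all 12 libraries. Cdk1 is the mitotic kinase (chr10:69352913-69353162, minus strand), Cdc20 activates the ligase that ends metaphase (chr4:118437344-118437593, minus strand), and Mcm5 is a subunit of the replicative helicase (chr8:75109259-75109508, plus strand). Each sequence is the 250 bases before the gene's start in RefSeq on GRCm38.p6, on the gene's strand, with capitals marking matches to TTTGAA (the core of the CHR element), CCAAT, TTTGGCGC and TTTCCCGC (forms of the E2F site) on either strand.
Cdk1: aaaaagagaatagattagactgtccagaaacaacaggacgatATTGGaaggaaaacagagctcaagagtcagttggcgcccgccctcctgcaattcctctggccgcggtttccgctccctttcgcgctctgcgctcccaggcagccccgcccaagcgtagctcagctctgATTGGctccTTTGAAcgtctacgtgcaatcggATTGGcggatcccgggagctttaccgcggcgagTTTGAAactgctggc
Cdc20: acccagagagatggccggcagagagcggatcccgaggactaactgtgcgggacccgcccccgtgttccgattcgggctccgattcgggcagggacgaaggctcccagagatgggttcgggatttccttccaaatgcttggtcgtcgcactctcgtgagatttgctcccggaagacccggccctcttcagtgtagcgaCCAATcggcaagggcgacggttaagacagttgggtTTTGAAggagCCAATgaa
Mcm5: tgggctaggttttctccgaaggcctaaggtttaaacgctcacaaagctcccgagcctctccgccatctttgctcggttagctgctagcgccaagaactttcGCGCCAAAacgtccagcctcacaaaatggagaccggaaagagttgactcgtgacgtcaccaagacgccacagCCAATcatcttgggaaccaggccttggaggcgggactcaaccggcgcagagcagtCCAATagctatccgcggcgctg
In the Cdk1 window TTTGAA matches ended 65 and 9 bases before the start, next to reverse CCAAT matches at 75 and 43. In Cdc20 a TTTGAA match ended 12 bases before the start, between CCAAT matches at 48 and 3. Mcm5 held a reverse TTTGGCGC match at 141 and CCAAT matches at 72 and 17, and none of the matches in these windows overlapped another motif.

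Among the genes of a list of G2 and M phase genes that had a promoter in the RefSeq table (43 of 49), 18 (41.9%) held TTTGAA and 34 (79.1%) held CCAAT. Among the S phase genes matched (31 of 43), 6 (19.4%) held TTTGAA, 22 (71.0%) CCAAT, 5 (16.1%) TTTGGCGC and 4 (12.9%) TTTCCCGC. Over all 27025 genes with a promoter of this length the shares were 18.3%, 37.5%, 0.485% and 1.03% in the same order. For 3941 of these genes with a mean of 20 CPM (counts scaled to a fixed total) or more, they were 13.5%, 41.4%, 1.40% and 2.33%. For 792 genes higher in cycling cells in all 12 libraries, they were 16.4%, 46.0%, 2.53% and 4.04%. Each gene counted once if any of its promoters held the motif. The table had no entry for Ccna2 or Stmn1. Of the other rule genes, Birc5 and Nusap1 held none of the motifs, Rrm2 held CCAAT, and Mki67 and Top2a held TTTGAA and CCAAT. A match describes letters in a window and was not tested as a binding site.

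The 6 genes of the rule were detected unevenly within cycling cells. Birc5 (survivin, of the chromosomal passenger complex) had a UMI in 91.2% of them, Rrm2 (ribonucleotide reductase) in 86.3%, Top2a (topoisomerase II alpha) in 84.8%, Ccna2 (cyclin A2) in 80.8%, Mki67 (Ki-67) in 76.7% and Nusap1 (a spindle protein) in 71.5%. All 6 were present in 808 cycling cells (44.0%), while 343 cells entered with exactly 3. Just inside the limit, cells with 3 genes had a median of 6416 UMIs, 92.7% had a UMI of Stmn1 (stathmin, a microtubule regulator outside the rule), and G2 and M phase genes made up 0.910% of their UMIs. Just outside it, cells with 2 genes had 4819 UMIs, 66.1% had Stmn1, and the same genes made up 0.643%. Resting cells had 2702 UMIs, 7.52% had Stmn1, and those genes made up 0.172%. The share of the mitotic list was higher with each added rule gene, and the median depth was too, except between 3 and 4 genes (6416 and 6059 UMIs). Top2a was the single rule gene in 44.5% of cells that held only 1.

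Cycling cells held T cell markers, in part because the rule chose them by their CD3 counts. Levels are given as CPM, the counts of a gene scaled to a fixed total over the summed cells of a library. The 8 T cell markers in the matrix include Cd3d, Cd3e and Cd3g, so their sum is partly set by the rule. Over the 12 libraries they summed to 3545 to 5656 CPM in cycling cells and to 5312 to 8520 CPM in resting cells. Cd4, which is outside the rule, was present in every cycling sum (69.0 to 213 CPM). Cd8a and Cd8b1 together reached at most 13.0 CPM, and Foxp3, which defines regulatory T cells, had 26 UMIs in all cycling cells together. Trac and Trbc2 were not analysed here. Il23r had 4 UMIs in control cycling cells, with 4 of 6 libraries at 0, and 7 UMIs in KO cycling cells, with 2 of 6 at 0; resting cells held 52 and 61. These 3′ tags do not check the knockout, since the transcript's end may be made from the targeted allele too.

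Cycling cells were deeper than resting cells: their median was 6189.5 to 17755 UMIs per cell against 2232 to 4947, a ratio of 2.45 to 4.07 within a library. Markers of several other cell types were near 0 in most cycling sums but not in all. Natural killer and innate lymphoid cell markers summed to 11.1 to 70.1 CPM in cycling sums (23.3 to 125 CPM in resting sums). Stromal and endothelial markers summed to 11.0 to 46.0 CPM (21.6 to 55.9 CPM in resting sums), and dendritic cell markers to 4.59 to 23.0 CPM (2.85 to 15.3 CPM). The 10 epithelial markers summed to 0 to 2609 CPM, the highest in colon epithelium KO, where 4 cells held 10 or more of these UMIs and 1 cell held 48.0% of them. The 8 macrophage and monocyte markers summed to 0 to 658 CPM, the highest in spleen KO 1, where 707 of 715 such UMIs lay in 1 cell. In spleen KO 2, 309 of 346 lay in 1 cell. Of the erythroid markers, Car1, which is also made by epithelium, stood at 971 CPM in cycling cells of colon epithelium KO, where the other erythroid markers had 1 UMI. Hbb-bs, a haemoglobin gene, stood at up to 47.8 CPM in cycling cells (spleen KO 1) and up to 785 CPM in resting cells (colon lamina propria control 1). Plasma cell markers were at 0 in all cycling sums, and B cell markers reached 4.38 CPM. UMIs of other types were counted per cell only for markers of B cells, macrophages and monocytes, neutrophils, erythroid cells and epithelium. Cycling cells with 2 or more UMIs of other types made up 37.2% in spleen KO 1, 18.7% in spleen KO 2, 13.3% in colon lamina propria control 1, 11.5% in colon epithelium KO, 7.38% in spleen control 1 and at most 4.08% elsewhere. After every cell was thinned to 1500 UMIs the share was 1.01% in cycling and 1.11% in resting cells. Doublets were not called, and their part in the results was not tested. Of cells with no CD3 UMI, 13 of 1027 (1.27%, median depth 3317 UMIs) passed the 3-gene limit at 1500 UMIs, against 4.0% of CD3-positive cells (median depth 3022 UMIs). Barcodes that occur in more than 1 library numbered 677 in all, and 1 such barcode was cycling in more than 1 library.

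In every library, the median gene of the replication, chromatin and mitosis lists was higher in cycling than in resting cells, and that of the naive and memory list was lower (library medians of -1.56 to -0.25 on the log2 scale). Because the rule chose the cells from the same counts, this contrast is a description and carries no test. Of 5068 genes with a mean of 20 CPM or more, 987 (19.5%) were higher in cycling cells in all 12 libraries and 599 (11.8%) were lower in all 12, with a median log2 ratio of 0.03 over all of them (log2 of CPM with 1 CPM added, median over libraries). Against resting cells of matched depth, which could be found for 1040 of the 1836 cycling cells, these counts were 427 and 163, and with all cells thinned to 1500 UMIs they were 110 and 160.

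The mitotic genes stood highest. Stmn1 ranged from 989 to 1897 CPM in cycling sums (median 1488) and from 12.2 to 77.2 CPM in resting sums (median 30.2), a median log2 ratio of 5.58. Cdk1 (ENSMUSG00000019942) ranged from 138 to 408 CPM (median 253) against 2.44 to 9.74 CPM. Cdc20 ranged from 49.7 to 395 CPM (median 224) against 1.84 to 5.69 CPM. The cycling and resting sums of these genes did not overlap in any library. The same held for Ccnb1 (cyclin B1, median 190 against 2.40 CPM, log2 ratio 5.83), Plk1 (polo-like kinase, 107 against 1.19 CPM, 5.68), Ube2c (the ubiquitin carrier of the anaphase complex, 550 against 8.97 CPM, 5.72) and Aurkb (the kinase of the chromosomal passenger complex, 120 against 1.76 CPM, 5.65). The largest ratios outside the rule belonged to Hmmr (a spindle protein, 6.15) and Esco2 (a cohesin acetyltransferase, 6.04). Hist1h2ap followed with 5.90, although reads of near-identical histone genes may be divided between copies. Of the 42 G2 and M phase genes above the minimum, 41 were higher in all 12 libraries, with a median log2 ratio of 4.56.

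Replication and nucleotide genes had smaller ratios. Mcm5 ranged from 164 to 284 CPM in cycling sums (median 216) and from 9.39 to 19.8 CPM in resting sums, a median log2 ratio of 3.63. Pcna, the sliding clamp of the replication fork, had medians of 415 and 88.6 CPM (2.20), and Tyms, which makes thymidylate, 312 and 20.7 CPM (3.74). Both were higher in all 12 libraries. Of the S phase list 30 of 36 members were higher in all 12 (median 2.63), of the replication licensing and fork list 16 of 18 (2.94), and of the nucleotide synthesis list 14 of 16 (1.26). All 18 histone and chromatin genes above the minimum were higher in all 12 libraries (2.83), among them Hmgb2 (a chromatin protein, 4744 against 687 CPM), H2afz (histone H2A.Z, 3517 against 794 CPM) and Tuba1b (alpha-tubulin, 1983 against 193 CPM). Oxidative phosphorylation genes were higher in all 12 for 12 of 14 members (0.62), and glycolysis genes for 7 of 14 (0.35), a median that became -0.068 against resting cells of matched depth.

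**Figure D1:**
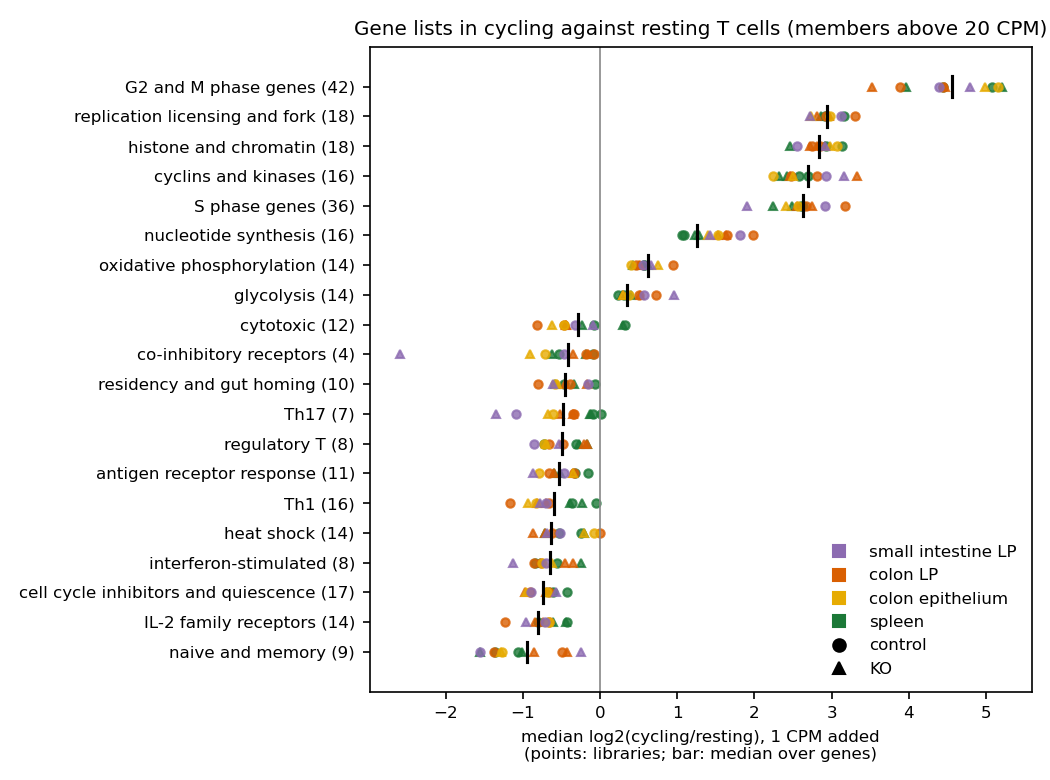
Median log2 ratio of CPM in cycling over resting cells for each gene list, 1 point per library and a bar for the median over the list's genes (1 CPM added, number of genes in brackets). The G2 and M phase list is at 4.56 and the S phase list at 2.63, while the naive and memory list is at -0.94.

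The cyclins and their inhibitors did not move as one group. Of 16 genes on the cyclin and kinase list, 10 were higher in all 12 libraries and 1 was lower. The lower one was Ccnd2 (cyclin D2, which acts early in G1), with medians of 175 CPM in cycling and 419 CPM in resting cells. Ccnd3 (cyclin D3) had 234 and 269 CPM and lay on both sides. Among 17 inhibitor and quiescence genes, 8 were lower and 3 higher in all 12 libraries. The 3 that were higher belong to the INK4 family, whose proteins inhibit the kinases CDK4 and CDK6: Cdkn2c (137 against 26.3 CPM, log2 ratio 2.22), Cdkn2a (62.0 against 11.7 CPM, 2.27) and Cdkn2d (223 against 133 CPM, 0.84). The cycling and resting sums of Cdkn2c did not overlap, and those of Cdkn2d did.

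Among the genes lower in all 12 libraries were some known from quiescence and survival, and the chemokine genes Ccl5 and Ccl4. Btg1, an antiproliferative factor, ranged from 229 to 1472 CPM in cycling sums (median 675) and from 963 to 5228 CPM in resting sums (median 2908), a median log2 ratio of -1.98 (-0.97 against resting cells of matched depth). Il7r, the receptor for the survival cytokine interleukin-7, ranged from 25.0 to 184 CPM (median 94.6) against 212 to 539 CPM (median 277), with no overlap, and its log2 ratio was -1.88 (-1.33 matched). Bcl2, which blocks apoptosis, ranged from 28.5 to 71.6 CPM against 107 to 393 CPM, also with no overlap (-1.62, -0.99 matched). Each was lower in all 12 libraries. The chemokine gene Ccl5 had medians of 2123 and 8414 CPM (-2.26, -0.84 matched), and Ccl4, also a chemokine gene, had 23.3 and 142 CPM (-2.62, -0.33 matched). Cxcl10, a chemokine gene outside this pattern, was higher in cycling cells in 11 of the 12 libraries (0.62). The largest fall belonged to Tcp11l2 (3.68 against 85.4 CPM, -4.06, -3.42 matched). Tcf7, a factor of naive and memory cells, stood at 48.4 against 131 CPM (-1.55, -1.22 matched), and the nuclear RNA Malat1 at 6499 against 19646 CPM (-1.65, -0.66 matched). Both were lower in all 12 libraries, and both ratios were closer to 0 in the matched comparison, which covers fewer cycling cells as well as deeper resting cells.

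The effector lists were lower or mixed. Of 16 Th1 genes 7 were lower and none higher in all 12 libraries (median -0.59), of 14 genes of the interleukin-2 receptor family 8 were lower (-0.80), of 9 naive and memory genes 4 were lower (-0.94) and of 11 genes of the antigen receptor response 4 were lower (-0.53). Of 12 cytotoxic genes 4 were lower and 1 was higher. That one was Gzma, the protease granzyme A, with 476 to 7309 CPM in cycling cells (median 2310) against 322 to 4229 CPM in resting cells (median 862): it was higher within each of the 12 libraries although the ranges overlap. Ifng, the interferon gamma gene, had medians of 123 and 211 CPM, and its median log2 ratio of -0.45 became 0.39 against resting cells of matched depth.

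Cycling cells made up 0.738% to 15.7% of CD3-positive cells, with most in the spleen. In colon lamina propria the share was 1.085% in control 1 (15 of 1383 cells, exact 95% binomial interval 0.608 to 1.78), 1.79% in KO 1 (49 of 2739, 1.33 to 2.36), 6.59% in control 2 (214 of 3246, 5.76 to 7.50) and 3.07% in KO 2 (100 of 3260, 2.50 to 3.72). In spleen it was 10.7% in control 1 (122 of 1136, 9.0 to 12.7), 10.2% in KO 1 (78 of 764, 8.15 to 12.6), 6.64% in control 2 (243 of 3661, 5.85 to 7.49) and 15.7% in KO 2 (566 of 3603, 14.5 to 16.9). The 4 colon values lay below the 4 spleen values, but colon control 2 and spleen control 2 had overlapping intervals. In small intestinal lamina propria the share was 4.16% in control (86 of 2069, 3.34 to 5.11) and 0.738% in KO (6 of 813, 0.271 to 1.60). In colon epithelium it was 6.43% in control (235 of 3653, 5.66 to 7.28) and 3.70% in KO (122 of 3296, 3.08 to 4.4). Intervals cover counting error only, and with 1 library per genotype these last tissues had no replicate check.

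**Figure D2:**
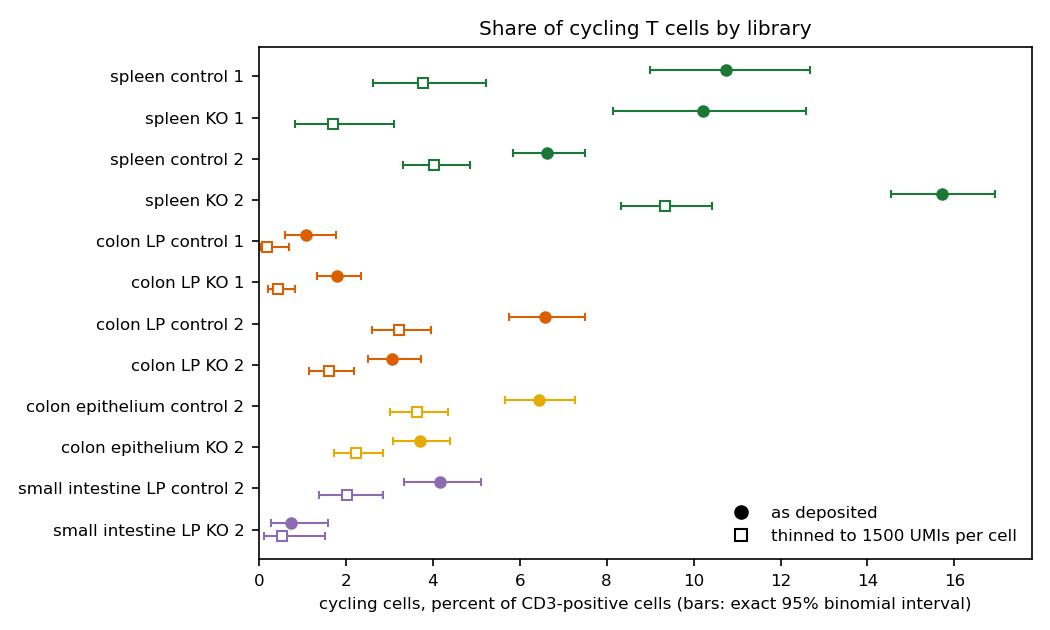
Percent of CD3-positive cells that were cycling in each of the 12 libraries, as deposited (filled) and with every cell thinned to 1500 UMIs (open), with exact 95% binomial intervals as bars. As deposited, the 4 spleen libraries lie between 6.64% and 15.7% and the 4 colon lamina propria libraries between 1.085% and 6.59%.

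The mean share was lower in colon lamina propria than in spleen by 2.05 on the log2 scale (fold 0.242). An exact two-sided permutation test gave p = 0.0286, the smallest that 70 arrangements allow, and 0.0571 after Benjamini-Hochberg adjustment over the 4 tests of shares and phases, so the difference did not pass at 0.05. The difference was -3.31 in control 1, -2.51 in KO 1 and -2.36 in KO 2, and -0.0098 in control 2. In batch 1 both pairs, and in batch 2 the KO pair, had binomial intervals that did not overlap. These intervals cover counting error within a library and not the spread between libraries. With the replicate number as a block the p was 0.125 (the smallest of 16 arrangements), without any one of the spleen libraries (control 1, KO 1, control 2 or KO 2) it was 0.0571, and with every cell thinned to 1500 UMIs the difference was -2.27 (p = 0.0571, exact permutation). Thinning left out 0 to 891 cells per library and gave 0.195% and 0.439% for colon control 1 and KO 1, 3.22% and 1.61% for colon control 2 and KO 2, 3.77% and 1.71% for spleen control 1 and KO 1, and 4.03% and 9.33% for spleen control 2 and KO 2. At that depth the colon control 2 value lay above the spleen KO 1 value.

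Between genotypes no common direction was seen. The share in KO cells differed from control by -0.42 on the log2 scale over all tissues (fold 0.749, exact permutation p = 0.528 with genotypes permuted within tissue, smallest possible 0.0139, adjusted p = 0.704). It was lower in KO in small intestine (-2.49), colon replicate 2 (-1.10) and colon epithelium (-0.80), higher in colon replicate 1 (0.72) and spleen replicate 2 (1.24), and -0.07 in spleen replicate 1. Without either small intestinal library the difference was -0.00188.

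The balance of phases among cycling cells was measured as the summed CPM of 43 S phase genes over that of 49 G2 and M phase genes, none of them in the rule. The ratio in colon lamina propria was 0.504 in control 1, 0.678 in KO 1, 0.428 in control 2 and 0.459 in KO 2. In spleen it was 0.401, 0.30, 0.320 and 0.308 in the same order. All 4 colon values lay above all 4 spleen values. Small intestine had 0.541 in control and 0.302 in KO (6 cells), and colon epithelium 0.386 and 0.467. The colon mean was higher than the spleen mean by 0.63 on the log2 scale (fold 1.54, exact permutation p = 0.0286, adjusted p = 0.0571), in batch 1 by 0.33 (control) and 1.18 (KO) and in batch 2 by 0.42 and 0.58. The p was 0.125 with the replicate block, and 0.0571 without colon control 1, without colon KO 1 or without spleen KO 1. Between genotypes the ratio differed by -0.085 (exact permutation p = 0.708, adjusted p = 0.708), and by 0.066 without either small intestinal library.

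**Figure D3:**
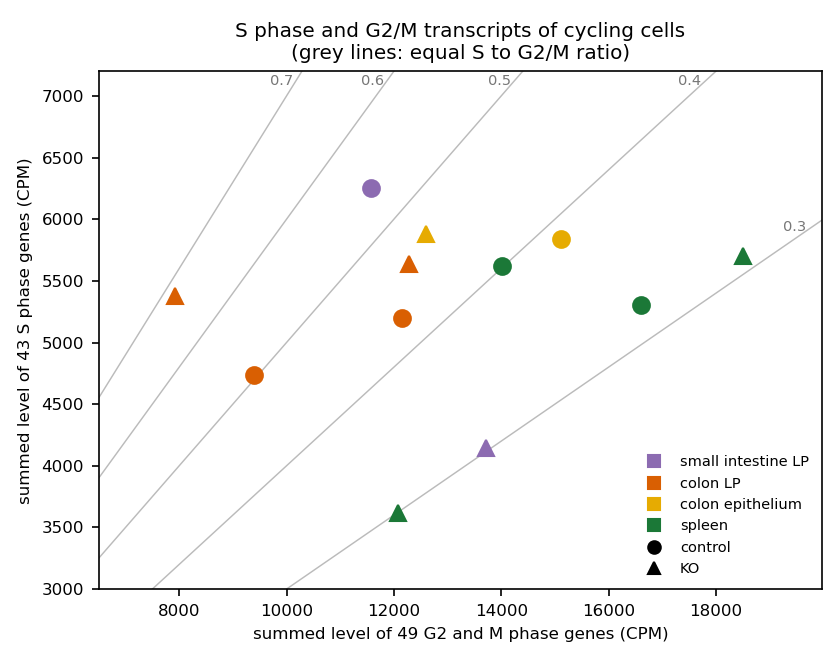
Summed CPM of 43 S phase genes (y axis) against that of 49 G2 and M phase genes (x axis) in cycling cells, 1 point per library, coloured by tissue and shaped by genotype, with grey lines of equal ratio. The ratios of the colon lamina propria libraries lie from 0.428 to 0.678 and the spleen libraries from 0.30 to 0.401.

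Cycling T cells of the colon lamina propria and of the spleen differed in genes of the antigen receptor response, among others. By the interaction test described below, this difference was more positive in cycling than in resting cells for 1 of 14 antigen receptor response genes. It was more negative for 5 of them, for 2 of 10 regulatory T genes and for 3 of 13 residency genes, with none more positive in the latter lists. Over all genes it was more positive for 0.84% and more negative for 6.42%. In edgeR's quasi-likelihood test over the 8 libraries with genotype as a term, 605 of 7709 genes (7.85%) were higher in colon and 427 (5.54%) lower at an adjusted p under 0.05. With the replicate block 812 and 697 genes passed, including 592 of the 605 and 420 of the 427. The counts were 400 and 279 in batch 1 alone and 786 and 629 in batch 2 alone. Without colon KO 1 they were 403 and 253, and the lower count was 261 without spleen control 1, 275 without spleen KO 2 and 251 without colon control 2. After removal of cells with 2 or more UMIs of other types, among them the cell with most macrophage UMIs in spleen KO 1, they were 553 and 396.

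Most tested genes of the antigen receptor response list were higher in the colon, and what raised them was not tested. Nr4a1 (ENSMUSG00000023034, chr15:101254269-101274795 in GENCODE M21 on GRCm38), an immediate early gene of T cell receptor signalling, stood at 140, 218, 170 and 305 CPM in colon control 1, KO 1, control 2 and KO 2. It stood at 11.8, 5.52, 4.41 and 3.36 CPM in the spleen in the same order, so that the groups did not overlap (log2 fold change 5.18 ± 0.39 SE, edgeR adjusted p = 3e-05). Of the 13 tested genes of the antigen receptor response, 10 were higher and none lower in colon (median 2.36, against -0.03 over all genes tested). They include Nr4a2 (5.0 ± 0.35), Tnfrsf4 (the OX40 receptor, 3.92 ± 0.27), Icos (a costimulator, 2.36 ± 0.17) and Myc (1.56 ± 0.30). Tnfaip3, which restrains NF-kappaB signalling, was at 144.3, 202, 248 and 356 CPM in the colon libraries and at 3.93, 15.6, 4.41 and 11.1 CPM in the spleen (4.89 ± 0.30). Heat shock and immediate early genes were higher for 8 of 14 members, among them Junb (3.06 ± 0.21) and Fos (2.39 ± 0.54), both parts of AP-1.

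Most tested genes of the regulatory T list were higher in colon, while Foxp3 was too low to test. Ctla4 (ENSMUSG00000026011), the receptor that competes with CD28, was at 737, 783, 351 and 478 CPM in the colon libraries (control 1, KO 1, control 2, KO 2) and at 9.17, 23.0, 9.45 and 9.32 CPM in spleen. Every colon value lay above every spleen value (5.66 ± 0.47, edgeR adjusted p = 0.00031). Of 8 tested genes of the regulatory T list, 7 were higher and 1 lower, with a median of 2.28. Il2ra, the high-affinity interleukin-2 receptor chain, was higher by 1.96 ± 0.32, and Klrg1, an inhibitory receptor, was lower by -1.74 ± 0.43. Of 9 tested co-inhibitory receptor genes Ctla4 alone was higher and none lower by edgeR (2 and 1 with the replicate block). Pdcd1, the gene of PD-1, stood at 23.4 to 39.7 CPM in colon and at 27.1 to 57.7 CPM in spleen, with overlap, and did not pass (-0.35, edgeR adjusted p = 0.326). Foxp3 was below the filter on low counts, with 0, 0, 3.82 and 0 CPM in the colon libraries and 3.28, 2.76, 2.52 and 0.776 CPM in the spleen libraries.

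Among genes that passed with at least 20 CPM and no overlap between tissues, the largest fold changes toward the colon included those of several secreted factors. Areg, an epidermal growth factor family ligand linked to tissue repair, stood at 113, 80.3, 48.0 and 90.5 CPM in colon and at 0, 0, 2.52 and 1.29 CPM in spleen (6.11 ± 0.51). Il22, a cytokine that acts on epithelium and has a close copy in the mouse genome, stood at 31.2, 29.2, 74.2 and 646 CPM in colon and at 0.655, 1.84, 1.26 and 1.04 CPM in spleen (7.45 ± 1.48, edgeR adjusted p = 0.032). The groups did not overlap, yet KO 2 alone carried most of the colon signal. Leaving out 1 library took the adjusted p of Il22 to between 0.0627 and 0.129 in 6 of 8 cases (all but colon KO 1 and colon KO 2). Ramp3, a partner of calcitonin-type receptors, stood at 187, 473, 51.8 and 57.1 CPM against 0, 0.92, 1.26 and 1.04 CPM (7.79 ± 1.34), and its adjusted p was 0.0524 to 0.0934 without each of the 4 spleen libraries in turn. Penk, the enkephalin precursor, was at 11.7, 17.5, 66.5 and 336 CPM against at most 3.62 CPM in spleen (5.84 ± 1.23). Its adjusted p was 0.0618 to 0.131 without each spleen library, colon control 1 or colon control 2. Cxcl10, a chemokine that attracts CXCR3-bearing T cells, was higher by 4.95 ± 0.26. Il17a stood at 42.9, 20.4, 21.8 and 190 CPM against 0, 0, 13.2 and 0 CPM and did not pass (4.42 ± 1.66, edgeR adjusted p = 0.165), and Ifng had 1.48 (adjusted p = 0.111). Ifng passed without colon control 1 (1.71, edgeR adjusted p = 0.0419) and by DESeq2 (1.44, adjusted p = 0.0117). Of 8 Th17 genes tested, 5 were higher (median 2.09).

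Other groups split. Of 16 Th1 genes 3 were higher and 3 lower in colon, the lower ones including Tbx21, the master factor of Th1 cells (-1.59). Of 15 genes of the interleukin-2 family, 7 were higher and 1 lower, among them Il4ra (the interleukin-4 receptor, 3.32 ± 0.25) and Bcl2l11 (the proapoptotic BIM, 3.26 ± 0.31). Of 12 cytotoxic genes 3 were higher and 2 lower, with Fasl, the death ligand, at 1.83 ± 0.18. Gzma had -0.04 ± 0.89 (adjusted p = 0.989). Of 15 glycolysis genes 4 were higher, including Hk2 (hexokinase 2, 3.99 ± 0.37). None of 14 oxidative phosphorylation genes and none of 21 replication genes passed in either direction with edgeR.

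Residency and quiescence genes moved too. Of 11 residency and gut homing genes 5 were higher and 1 lower, among them Rgs1 (a brake on chemokine receptor signalling, 3.65 ± 0.19) and Cd69 (which retains cells in tissue, 1.79 ± 0.29). The lower one was Itgb7 (the beta7 integrin chain, -0.92 ± 0.15). Of 18 inhibitor and quiescence genes 6 were higher and 2 lower. Btg1 was higher by 2.23 and Cdkn1a (p21) by 2.04, while Klf2, which drives exit from tissue into blood and lymph, was lower. Klf2 stood at 409, 383, 278 and 262 CPM in the colon libraries and at 1126, 1123, 1201 and 884 CPM in the spleen libraries, without overlap (-1.67).

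The genes with the largest fold changes toward the spleen, chosen by the same limits, were of several kinds. Itgb1, the beta1 integrin chain, stood at 105, 118, 28.9 and 27.0 CPM in colon and at 1096, 938, 313 and 930 CPM in spleen (-3.62 ± 0.78, edgeR adjusted p = 0.0385). The groups did not overlap, and the adjusted p was 0.0592 to 0.0971 without any one library other than spleen control 2. Nrp1, a coreceptor for semaphorins, was at 3.90, 1.46, 0 and 3.17 CPM against 68.8, 52.4, 27.7 and 84.9 CPM (-5.43 ± 0.63). Pglyrp1, a peptidoglycan recognition protein, was at 66.3, 57.0, 73.1 and 49.2 CPM against 246, 254, 284 and 353 CPM (-2.17 ± 0.17). Sema4a (-2.84), Id3 (-2.37), Ms4a4c (-2.29) and Gzmm (-2.12) were lower as well. Gzmm had an adjusted p of 0.0856 and Ms4a4c of 0.0534 without colon control 2.

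**Figure D4:**
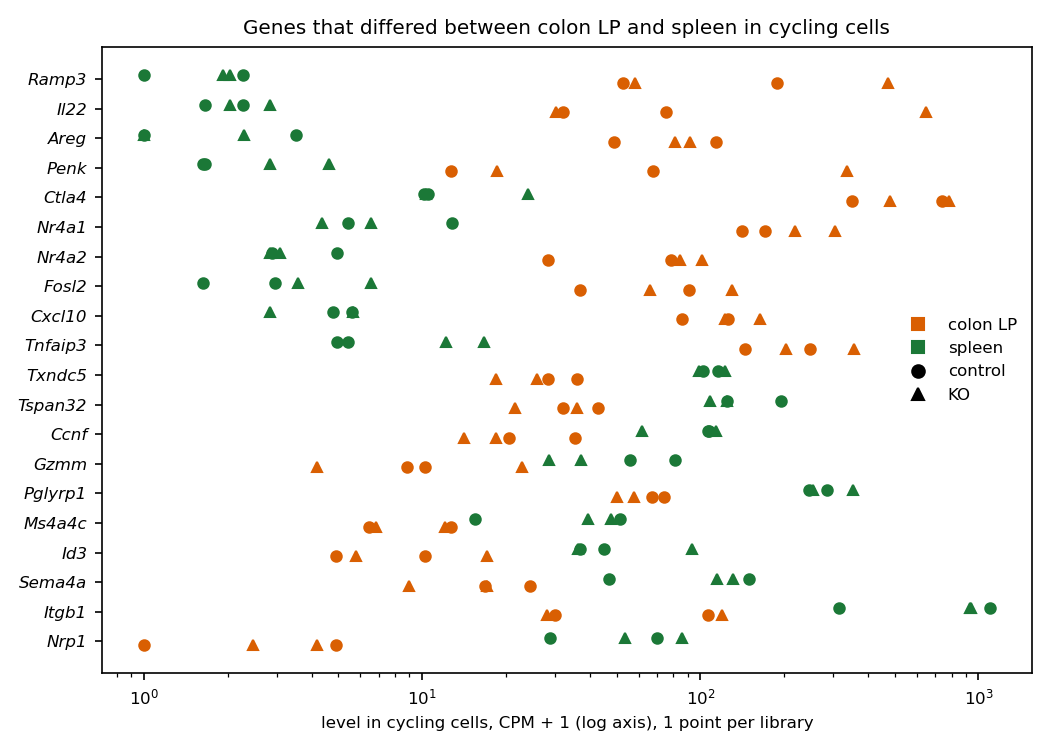
CPM plus 1 in the cycling cells of the 4 colon lamina propria and 4 spleen libraries (log axis) for the genes with the largest fold changes each way, 1 point per library. For Ctla4 the colon libraries had 351 to 783 CPM and the spleen libraries 9.17 to 23.0 CPM. Genes were shown only if their tissues did not overlap, so the lack of overlap was set by this choice.

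Within the division program, most genes that were lower in colon lay on the G2 and M phase list and the cyclin and kinase list. Of 49 G2 and M phase genes none was higher and 7 were lower in colon (median -0.56), and with the replicate block 29 were lower, beside 697 of all 8119 genes. Ccnb2 (cyclin B2) was lower by -0.91. Of 43 S phase genes 3 were higher (Dtl, Atad2 and Casp8ap2) and none lower (median 0.08). That share of higher genes is near the 7.85% of all genes tested, of which 5.54% were lower. Of 19 cyclin and kinase genes 2 were higher and 5 lower. Ccnf (cyclin F) stood at 19.5, 13.1, 34.4 and 17.5 CPM in colon and at 106, 60.7, 107 and 113 CPM in spleen, with no overlap (-2.07 ± 0.24). Stmn1, outside the rule, had -0.10 and did not pass.

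The difference between tissues was itself compared between cycling and resting cells of the same libraries, by the interaction of state and tissue in edgeR. In cycling cells the colon-minus-spleen difference was more positive for 86 of 10243 genes (0.84%) and more negative for 658 (6.42%). Of the 658, 544 (82.7%) were higher in the colon in resting cells, and for 461 (70.1%) the difference between tissues was smaller in cycling cells. Of the 86, 6 (6.98%) were higher in the colon in resting cells, and for 62 (72.1%) the difference was smaller in cycling cells. Over all 10243 genes these shares were 33.6% and 58.1%. The genes were chosen on these same differences, so shares unlike those of all genes are in part set by the choice. With the size factors of DESeq2 the counts were 109 and 357, so that the share more positive went from 11.6% to 23.4%, as the median of all genes moved from -0.13 to -0.02. Spleen KO 2 held the most cycling cells, and without it 56 and 123 genes passed. Without spleen control 1 they were 48 and 319, without colon control 1 68 and 420, without colon KO 1 67 and 403, and without colon KO 2 67 and 362.

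Effector genes were among those whose tissue difference was more negative in cycling cells. Of the Th1 list 9 of 16 genes were more negative and none more positive (6 of 16 with DESeq2 size factors), and of the cytotoxic list 7 of 12 (6 with those factors). Beside them stood 6.42% of all genes tested, or 357 of 10243 with those factors. Without spleen KO 2, where 123 of all genes were more negative, these lists were not counted.

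Some cell cycle genes had more RNA in resting cells of the colon than in resting cells of the spleen. Lmnb1 (lamin B1) stood at 354, 425, 195 and 304 CPM in resting colon cells of control 1, KO 1, control 2 and KO 2 and, in the same order, at 64.9, 69.2, 63.2 and 76.1 CPM in resting spleen cells. In cycling cells it stood at 394, 457, 495 and 538 CPM and at 703, 560, 635 and 791 CPM (interaction -2.95 ± 0.35). The order of the tissues was thus opposite in the 2 states. Cks2, a subunit of cyclin-dependent kinases (-2.29 ± 0.31), and Cenpa, the centromeric histone (-2.33 ± 0.40), followed the same order in resting cells, with 132 to 180 CPM of Cks2 in colon and 40.9 to 54.0 CPM in spleen. The adjusted p of Cenpa was 0.0634 to 0.109 without spleen control 1, colon control 1, spleen control 2 or spleen KO 2. Of 49 G2 and M phase genes 10 were more negative and none more positive (9 with DESeq2 size factors), beside 6.42% of all genes tested (357 of 10243 with those factors). Fcer1g (-2.62) had an adjusted p of 0.0779 once cells with markers of other types were removed.

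On the other side, E2f2, an E2F factor (1.70 ± 0.31), was at 0.921 to 6.90 CPM in resting colon cells and 28.7 to 39.2 CPM in resting spleen cells. Cycling cells held 11.7 to 33.6 CPM in colon and 50.6 to 66.8 CPM in spleen. Bcl2 (1.40 ± 0.19) was at 107 to 132 CPM in resting colon cells and at 201 to 393 CPM in resting spleen cells. In cycling cells the 2 ranges were 42.9 to 71.6 and 35.5 to 42.2 CPM. Myc (1.66 ± 0.29) and Atic, an enzyme of purine synthesis (1.13 ± 0.21), were also more positive, and 3 of 20 nucleotide synthesis genes were.

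**Figure D5:**
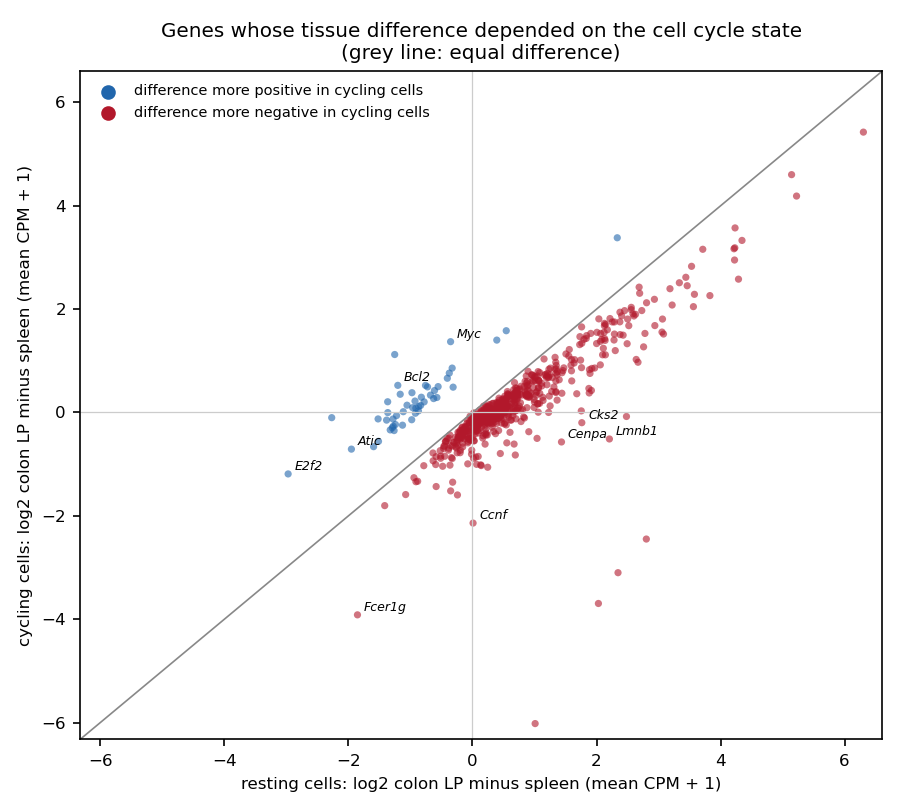
Log2 difference of mean CPM plus 1, colon lamina propria minus spleen, in resting cells (x axis) against the same in cycling cells (y axis) for the 645 genes of at least 20 CPM that passed the interaction test, 48 more positive and 597 more negative in cycling cells. The diagonal marks equal differences, and genes described in the text are labelled.

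Between genotypes few genes of cycling cells passed the test, and the largest differences lay in epithelial genes of 1 library. Over the 10 libraries with at least 20 cycling cells, with tissue as a term, 24 of 9166 genes (0.262%) were higher and 2 (0.0218%) lower in KO cells by edgeR, with 437 and 157 at an unadjusted p under 0.05. Reg3g, an antimicrobial lectin of the gut lining, stood at 1874 CPM in colon epithelium KO and at most 7.80 CPM in the other libraries. Krt19, an epithelial keratin, stood at 597 CPM in that library. Both were picked out after their values were seen. Of 9 epithelial markers tested, 3 were among the higher genes. The count was 0 and 0 after removal of cells with markers of other types, without colon epithelium KO, without colon epithelium control, without small intestine control and with all 12 libraries. DESeq2 called 0 and 3 genes. The replicate block gave 80 and 15 genes, leaving out spleen KO 2 gave 44 higher, leaving out colon control 2 gave 38 and 0, and the lower count was 4 without spleen control 1 and 1 without spleen control 2. None of the 24 and 2 genes had genotype groups that stood apart in every library.

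Inside the tissues with replicates, no gene passed in the main fit, which had no replicate block. In colon lamina propria 0 of 8119 genes (0.0%) were higher and 0 (0.0%) lower in KO cycling cells by edgeR, with 125 and 123 at an unadjusted p under 0.05 and 0 and 0 by DESeq2. The fit included colon control 1 with its 15 cycling cells, and without that library the counts were 0 and 0. Without colon KO 1 the higher count was 1, and without colon control 2 the lower count was 1. In spleen 0 (0.0%) were higher and 0 (0.0%) lower by edgeR, with 61 and 54 unadjusted and 1 and 0 by DESeq2. The replicate block gave 7 and 0 there, and leaving out spleen KO 1 or spleen KO 2 gave 3 or 4 higher. None of the cell cycle lists had a member that passed in either tissue, and the median of the G2 and M phase list was -0.15 in colon and -0.02 in spleen.

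Il22 in cycling cells of the colon stood at 31.2 CPM in control and 29.2 CPM in KO in batch 1, and at 74.2 and 646 CPM in batch 2. Its genotype difference did not pass in the fit over 10 libraries. With the replicate block its log2 difference was 2.88 (edgeR adjusted p = 2.03e-05), and without colon KO 1 it was 2.74 (0.00606) over all tissues and 3.36 (0.0221) in colon lamina propria alone. Gzma in spleen stood at 1532 and 1652 CPM in control 1 and KO 1 and at 7309 and 476 CPM in control 2 and KO 2. The direction thus differed between the batches.

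The genotype difference was more positive in cycling than in resting cells for 3 of 9923 genes (0.0302%) and more negative for 0 (0.0%) by edgeR, with 211 and 126 at an unadjusted p under 0.05 and 0 and 0 by DESeq2. These 3 were Car1 (6.71), Ckmt1 (5.93) and Prap1 (8.57), all known from epithelium, with Car1 also from red cells. None passed without either colon epithelium library, after removal of cells with markers of other types, or with 4 or more rule genes. Without colon control 1 the counts were 17 and 2, without colon KO 1 6 and 1, and without small intestine control 1 and 0.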

How the data were processed

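RNA of CD4 T cells was measured in 12 libraries with 10x Chromium 3′ version 2 chemistry, per the labels' protocols. The deposited values are counts of UMIs per gene and cell (18601 genes, 32763 cells), and Cell Ranger 2.0.2 with build mm10 appears in the submitters' processing notes. The authors' filter on cells is not stated in the sources used here. Groups came from the labels, and 2 columns of the cell table that repeat them were not used. No cell was removed.

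UMIs were summed per library over cycling and over resting cells. Cycling cells of the 2 tissues with replicates, and of the genotypes, were compared by edgeR 4.0.16 in R 4.3.3 (filterByExpr, TMM factors 0.912 to 1.26, robust quasi-likelihood test, Benjamini-Hochberg at 0.05). SE is the absolute log2 fold change over the square root of F. DESeq2 1.42.0 was an alternative. Shares and phase ratios were compared by exact two-sided permutation tests (numpy 2.4.6), with permutation within tissue for genotype. Binomial intervals came from scipy 1.17.1. Scripts were tested on simulated data. Libraries with under 20 cycling cells were left out of the genotype fit over all tissues, while the fits on colon lamina propria and spleen held all 8 libraries (15 cells in colon control 1), and the small intestine and colon epithelium had no test of their own. The alternatives were other rule and CD3 limits, depth thinning and matching, other scaling, no filter on low counts, removal of cells with 2 or more UMIs of other types, a replicate block and leaving out each library.

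Same-numbered samples deviated together from their group means (r 0.27 to 0.52 over 4964 genes, 6 distinct values, since with 2 libraries a group the deviations mirror each other). The number equals the batch for all 32763 cells, so the numbers were read as pairing samples. The main tests between libraries did not use this pairing, which entered through the replicate block among the alternatives. The cell rule, gene lists and tests were chosen with earlier results of these data known. Named genes follow a rule: 20 genes always, in the description the 20 largest median ratios each way with at least 20 CPM and all 12 libraries on 1 side, in each test the 10 largest fold changes each way with groups that do not overlap or, where none passed, the 5 smallest p-values each way, and up to 4 members per list. Predicted genes, Rik clones, mitochondrial genes and receptor segments were counted but not named, and some genes the rule takes are not described.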

Additional observations from a re-analysis of the deposited data

Results flagged for a closer look

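Dixon's test at the 95% level was run on 48 groups of 4 or 6 libraries, for named genes, the share of cycling cells and the phase ratio. In 6 groups, all of named genes in 4 libraries, 1 library was set apart from the other 3. Chance sets apart about 1 in 20 groups if the values are normally distributed, which was not tested. In cycling cells of colon lamina propria, KO 2 stood at 646 CPM of Il22, with the others at 29.2 to 74.2, and at 336 CPM of Penk, with the others at 11.7 to 66.5. In the spleen, KO 1 stood at 23.0 CPM of Ctla4 (others 9.17 to 9.45), at 92.0 CPM of Id3 (others 35.2 to 43.9) and at 60.7 CPM of Ccnf (others 106 to 113). Spleen control 1 stood at 3.93 CPM of Nr4a2 (others 1.84 to 2.07), levels near the floor that rest on few UMIs. Spleen KO 1 is also the library in which 37.2% of cycling cells held 2 or more UMIs of other types, and its values without these cells were not computed.

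Effects that differed between cycling and resting cells by the interaction test were the tissue effect, for 86 genes in the positive and 658 in the negative direction, and the genotype effect, for 3 genes.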

How the results depend on the processing

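The share of cycling cells was lower in colon lamina propria than in spleen under every alternative run, but p missed 0.05 with 4 or more rule genes (-1.96), a CD3 limit of 1 UMI (-2.003), without the deepest cells (-2.47), with thinning to 1500 (-2.27) or 2500 UMIs (-2.46) and with the replicate block (-2.05, p = 0.125 by exact permutation), and leaving out 1 library gave -2.51 to -1.64. The phase ratio between these tissues missed 0.05 with 4 or more rule genes (0.51) and with the replicate block (0.63), and leaving out 1 library gave 0.49 to 0.72. Between genotypes the phase ratio turned to 0.018 with 4 or more rule genes and leaving out 1 library gave -0.19 to 0.066, while the share gave -0.79 to -0.00188. The cause of these changes was not tested.

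In the description of cycling against resting cells, thinning to 1500 UMIs gave 110 higher and 160 lower genes and list medians of 2.76 (replication), 2.02 (cyclins), -1.69 (naive and memory) and 0.12 (glycolysis). Resting cells of matched depth gave 427 and 163 genes, 2.64 (replication), -0.33 (inhibitors and quiescence), -0.010 (residency), -0.068 (glycolysis), 0.31 (oxidative phosphorylation) and -0.28 (heat shock). With 5 CPM added the medians were 2.29 (S phase), 3.27 (G2 and M phase), 2.64 (replication) and 2.17 (cyclins). Leaving out 1 library gave 993 to 1220 higher and 600 to 725 lower genes.

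For genotype in cycling cells, higher and lower counts were 0 and 3 with DESeq2, 224 and 37 with no filter on low counts, 0 and 0 without cells holding markers of other types, 0 and 0 with all 12 libraries, 80 and 15 with the replicate block, and 0 to 44 and 0 to 4 leaving out 1 library. In colon lamina propria they were 18 and 23 with no filter, and 0 to 1 and 0 to 1 leaving out 1 library. In spleen they were 1 higher with DESeq2, 40 and 12 with no filter, 7 higher with the replicate block, and 0 to 4 higher leaving out 1 library. For colon against spleen they were 400 and 279 in batch 1 alone, 758 lower with no filter, 697 lower with the replicate block, and 403 to 559 and 251 to 411 leaving out 1 library. For the tissue effect in cycling against resting cells, the lower count was 316 with DESeq2 and 357 with its size factors in edgeR, and leaving out 1 library gave 48 to 102 and 123 to 791. For the genotype effect the higher count was 0 with DESeq2, 0 with 4 or more rule genes and 0 without cells holding markers of other types, the counts were 44 and 5 with no filter, and leaving out 1 library gave 0 to 17 and 0 to 2. The batch 1 and batch 2 fits and the genotype fit with all 12 libraries were chosen after the data were seen, as was the phase ratio without cells holding markers of other types (0.73 between tissues, -0.15 between genotypes). Small sums limit what can be seen: 6 cells in small intestine KO and 15 in colon control 1.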
